A study of Homo sapiens with 6 samples.

Results

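Death receptors, the proteins that relay or block their signal, and 1 inhibitor of lymphocyte granule killing were followed at the RNA level in H2087-LCC cells. The 10 genes were picked by symbol for their known roles: the receptors FAS, TNFRSF10A, TNFRSF10B and TNFRSF1A, the adaptor FADD, the initiator caspase CASP8, its inhibitor CFLAR, the inhibitor of apoptosis (IAP) genes BIRC3 and XIAP, and the granzyme B inhibitor SERPINB9. They and the lists below were chosen with earlier results of these data known. Their shares called, set beside those of all genes, are therefore description only. All 10 symbols were found among the 21293 genes of the deposited table, and 9 passed a filter on low values. H2087-LCC is a latency competent population that was selected in mice from H2087, a human lung adenocarcinoma line. It was sequenced in 3 groups of 2 libraries, all of the same cells in low-serum medium: SB505124 (SB) for 3 days, TGF-β for 3 days and TGF-β for 7 days. SB505124 is a kinase inhibitor of the TGFβ type I receptor. SB was sequenced at 3 days only, and in the comparison of 7 days of TGFβ with SB the treatment and the longer culture cannot be told apart. The study describes the 2 libraries of a group as technical replicates, so every p-value and call below measures technical spread only and not the spread between cultures.

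Death receptors are members of the TNF receptor family with an intracellular death domain. When a ligand on a lymphocyte (FAS ligand, TRAIL or TNF) clusters them, they recruit FADD and caspase-8, which starts the caspase cascade. The product of CFLAR, c-FLIP, resembles caspase-8 but lacks protease activity and competes for FADD, XIAP blocks the executioner caspases, and BIRC3 encodes cIAP2, a ubiquitin ligase that holds the TNF receptor complex in its survival mode. Cytotoxic T cells and natural killer (NK) cells kill through these receptors or by releasing perforin and granzymes, and SERPINB9 encodes the inhibitor with which some cells neutralize granzyme B.

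Values are read counts per gene that the authors normalized by library size and rounded to whole numbers, called normalized counts here. Each library held an estimated 32000000 to 40000000 assigned reads. Log2 fold changes are of the normalized count plus 1, from limma fitted to 14395 genes whose mean was 10 or more, and a gene was called when its Benjamini-Hochberg adjusted p was under 0.05. The TGFβ targets SMAD7, SKIL, FN1 and CDKN2B rose and CDH1 fell at both time points, in the direction the labels imply. Of 7 epithelial and lung carcinoma markers, 5 were called lower and 1 higher than SB at both times. At 7 days the log2 changes were -5.54 for CDH1, -1.73 for NKX2-1, -1.62 for EPCAM, -1.03 for SOX2 and -0.56 for KRT18, against 1.06 for KRT7, and KRT8 was not called (0.11). The 3-day call of KRT18 was lost in 4 of the 6 fits with 1 library left out (adjusted p from 0.0505 to 0.163). The part of this shift in the results was not tested. Of 14 lymphocyte and myeloid markers none passed the filter, with summed normalized counts of 20 and 39 in SB, 22 and 18 at 3 days and 36 and 31 at 7 days. GZMA was at 0 in all 6 libraries and PTPRC between 0 and 4. The 5 fibroblast and endothelial markers summed to 62 and 69 in SB, 67 and 78 at 3 days and 63 and 56 at 7 days. PECAM1, from 36 to 67, was the only one of them tested and was called higher at 3 days (0.72, adjusted p = 0.0391), a call lost in 5 of the 6 fits with 1 library left out (adjusted p from 0.0656 to 0.179), and its part in the results was not tested. The SB libraries differed from each other in some genes of NF-κB and interferon signaling. The second was 1.63 times the first for BIRC3, 1.47 times for NFKBIA and 10.5 times for XAF1. The median over all genes tested was 0.996, and TNFAIP3 differed less, at 2798 and 3001.

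After 3 days of TGFβ, FAS, CFLAR and BIRC3 were lower than in SB and TNFRSF10B, TNFRSF1A and XIAP were higher. These 6 of the 9 tested members were called, 3 in each direction, where 29% of all genes tested were called (14.9% higher and 14% lower). After 7 days, 9 of 9 were called, with 4 higher and 5 lower, where 54.5% of all genes were (27.7% higher and 26.9% lower). Between 7 and 3 days, 5 were called, with TNFRSF10B, TNFRSF1A and XIAP higher and FAS and TNFRSF10A lower at 7 days, against 33.2% of all genes (17% higher and 16.2% lower). The members did not move one way: their median log2 fold change was -0.16 at 3 days and -0.29 at 7 days relative to SB, against -0.02 and -0.00081 over all genes tested. In 9 of 9 members the SB pair did not overlap the TGFβ pair at 3 or at 7 days, where 63.2% and 77.5% of all genes did not, and in 7 of 9 the 3-day and 7-day pairs did not overlap (69.1% of all genes). Both comparisons with SB use the same SB libraries. In these bulk libraries, fewer cells with a transcript and less of it per cell cannot be told apart. Fewer members were called at 3 days whichever library was left out. At 7 days fewer were called without the second SB library or without either 7-day library. Without the second SB library, the one with the higher BIRC3 and NFKBIA values, the change of BIRC3 was -0.35 at 3 days and -0.38 at 7 days. Between 7 and 3 days, 2 members were called without either 7-day library, both higher, and 3 without either 3-day library, with 0 lower for the first and 1 lower for the second.

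**Figure D1:**
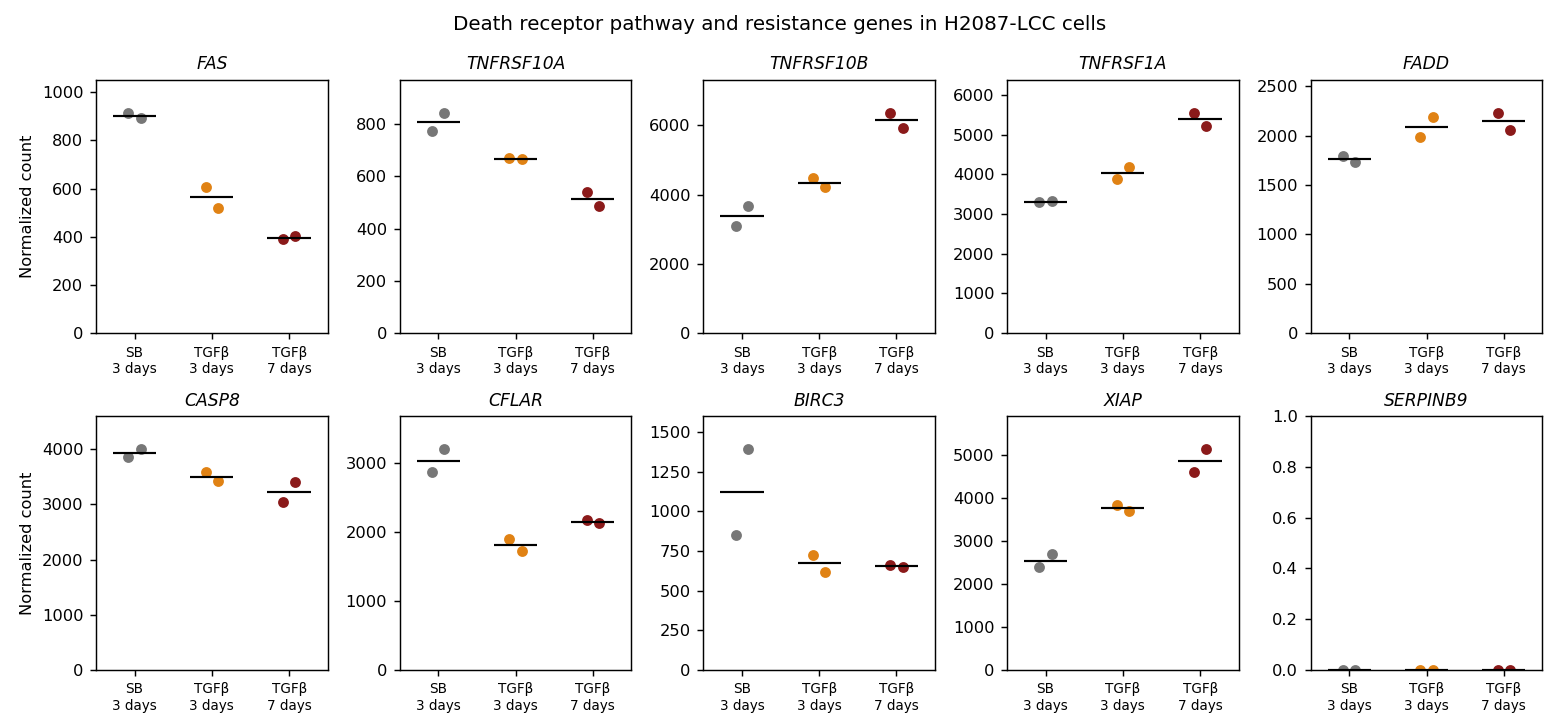
Normalized counts (vertical axes, linear from 0) of the 10 genes in the 6 libraries, by treatment. Each point is 1 library and each line the mean of 2. FAS and TNFRSF10A step down, TNFRSF10B, TNFRSF1A and XIAP step up, CFLAR is lowest at 3 days, the SB libraries of BIRC3 lie far apart, and SERPINB9 is at 0 throughout.

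FAS, the receptor of FAS ligand and the main receptor route of T cell killing, fell most among the members at 7 days. It lies on chromosome 10 of GRCh37 from 90750414 to 90775542. The normalized count of FAS was 915 and 892 in SB, 608 and 520 after 3 days and 390 and 403 after 7 days, 3 pairs that do not overlap. The 3-day log2 fold change of -0.68 had a standard error of 0.12 (adjusted p = 0.0013). That at 7 days was -1.19 (standard error 0.12, adjusted p = 8.6e-06), so that the mean was 0.439 times that of SB. The further step from 3 to 7 days was -0.50 (standard error 0.12, adjusted p = 0.00889), a call that did not hold without the first 3-day library (-0.39, adjusted p = 0.0988) or without either 7-day library (adjusted p = 0.0669 and 0.0519). ACTA2 overlaps FAS in the annotation and stood between 33 and 56 in the 6 libraries. Among 11380 other genes with a mean of at least 100, those closest to FAS in Euclidean distance over the 6 centred log2 values were PLS1 (0.12), HMGN5 (0.142) and MAP3K5 (0.143). MAP3K5 encodes ASK1, a stress kinase, and went from 1642 and 1666 in SB to 647 and 724 at 7 days.

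The TRAIL death receptors moved apart. TNFRSF10A encodes DR4 and TNFRSF10B encodes DR5, and both lie in a cluster on chromosome 8 with the decoy receptor genes TNFRSF10C and TNFRSF10D. TNFRSF10A was 774 and 844 in SB, 671 and 665 at 3 days and 539 and 486 at 7 days. Each time point lies below the one before without overlap. The change of TNFRSF10A at 3 days was -0.27 (95% interval -0.53 to -0.02, adjusted p = 0.0996) and was not called, while that at 7 days was -0.66 (standard error 0.12, adjusted p = 0.000525). From 3 to 7 days it was -0.38 (adjusted p = 0.0254), and this call was lost without any 1 of the 3-day or 7-day libraries (adjusted p from 0.0646 to 0.198).

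TNFRSF10B was 3081 and 3664 in SB, 4477 and 4218 at 3 days and 6362 and 5918 at 7 days. The groups rank by time under TGFβ with no overlap. TNFRSF10B rose by 0.37 at 3 days (adjusted p = 0.0147, standard error 0.10), and by day 7 the rise was 0.87 (standard error 0.10, adjusted p = 1.88e-05), with a step of 0.50 between them (adjusted p = 0.00302). The call at 3 days did not hold when the first SB library (0.25, adjusted p = 0.0811) or the first 3-day library (0.33, adjusted p = 0.0993) was left out, with no filter on low values (adjusted p = 0.0696) or without the trend on mean expression (adjusted p = 0.085). Within each library the normalized count of TNFRSF10B divided by that of TNFRSF10A was 3.98 and 4.34 in SB, 6.67 and 6.34 at 3 days and 11.8 and 12.2 at 7 days. RHOBTB2, which overlaps TNFRSF10B, stood between 347 and 523. The ratio depends on the lengths of both transcripts, so only its shift between libraries can be read.

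TNFRSF1A, the ubiquitous TNF receptor TNFR1, lies on chromosome 12 from 6437923 to 6451280. It was 3291 and 3325 in SB, 3871 and 4193 at 3 days and 5553 and 5230 at 7 days, again with no overlap between groups. At 7 days it had risen by 0.70 (standard error 0.08, adjusted p = 3.04e-05), and it rose by 0.42 from 3 to 7 days (adjusted p = 0.00338). The 3-day rise of 0.28 (standard error 0.08, adjusted p = 0.0262) stood at the edge of the threshold: the call was lost when any 1 of the 6 libraries was left out (0.23 to 0.34, adjusted p from 0.0513 to 0.182), with equal library totals (adjusted p = 0.0587) and without the trend (adjusted p = 0.0904).

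**Figure D2:**
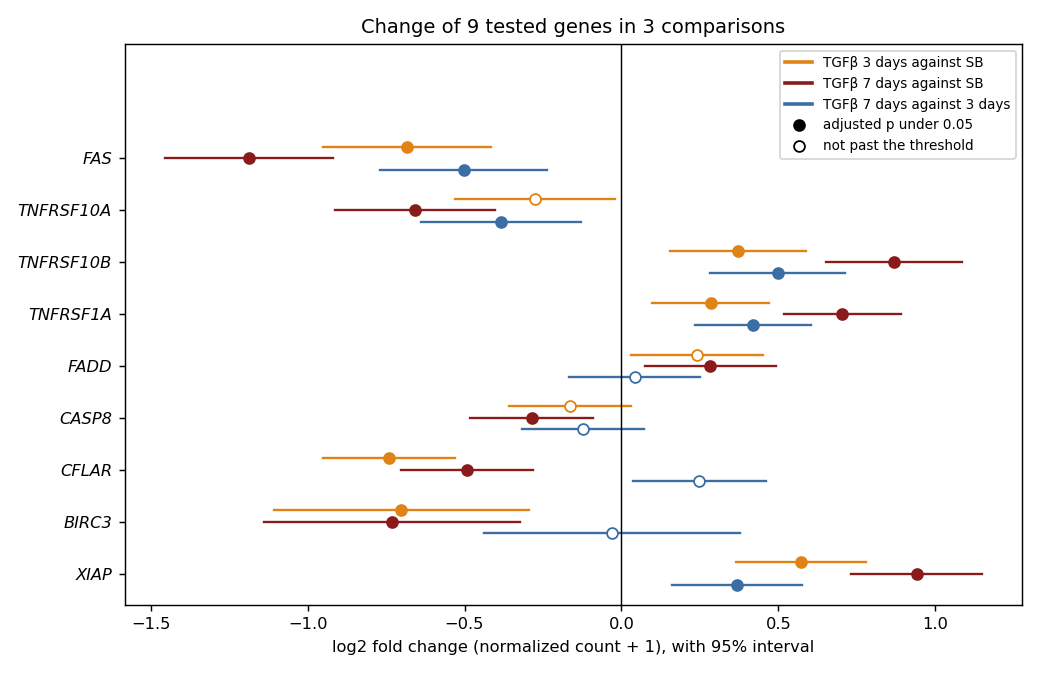
Log2 fold changes (horizontal axis, normalized count + 1) of the 9 tested genes in 3 comparisons. Lines are 95% intervals from limma, filled points have an adjusted p under 0.05. FAS lies furthest to the left at -1.19 and XIAP furthest to the right at 0.94, both at 7 days against SB.

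Downstream of the receptors, the estimated change from SB was larger in size for CFLAR than for FADD or CASP8 at both times. No test compared the genes, and at 7 days the 95% intervals of CFLAR (-0.70 to -0.28) and CASP8 (-0.48 to -0.09) overlapped. CFLAR and CASP8 lie on chromosome 2 in the same direction, CFLAR from 201980877 to 202041410 and CASP8 from 202098166 to 202226559, with CASP10 between them. CFLAR was 2862 and 3192 in SB, 1899 and 1721 at 3 days and 2169 and 2126 at 7 days. Both TGFβ pairs lie below SB, and the 7-day pair lies above the 3-day pair. The log2 fold change of CFLAR was -0.74 at 3 days (standard error 0.10, adjusted p = 0.000124), against -0.49 at 7 days (adjusted p = 0.00106), and both calls were kept in all 16 other settings tried, 6 of which leave out a library. The difference between 7 and 3 days was 0.25 (95% interval 0.04 to 0.46, adjusted p = 0.0674) and was not called. It was called with only the 4 libraries compared (adjusted p = 0.0438). With 1 library left out the difference ranged from 0.18 to 0.32. The antisense gene CFLAR-AS1 overlaps CFLAR and stood between 2 and 7. The library kit does not mark strand, so reads of the pair cannot be told apart.

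CASP8 was 3859 and 3999 in SB, 3587 and 3429 at 3 days and 3043 and 3410 at 7 days. Its change was -0.16 at 3 days (95% interval -0.36 to 0.03, adjusted p = 0.196) against -0.29 at 7 days (standard error 0.09, adjusted p = 0.0173). The 7-day call did not hold when the second SB library (adjusted p = 0.055) or the first 7-day library (adjusted p = 0.19) was left out, or without the trend (adjusted p = 0.0609). FADD, on chromosome 11 from 70049402 to 70053496, was 1790 and 1735 in SB, 1983 and 2186 at 3 days and 2232 and 2059 at 7 days. Both TGFβ pairs lie above SB and overlap each other. The difference of FADD from SB was 0.24 at 3 days (95% interval 0.03 to 0.45, adjusted p = 0.081), and it rose by 0.28 at 7 days (standard error 0.10, adjusted p = 0.0255), a call lost without the second SB library or without either 7-day library (adjusted p from 0.057 to 0.191), with equal library totals (adjusted p = 0.0532) and without the trend (adjusted p = 0.0644).

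The normalized count of CFLAR divided by that of CASP8 in the same library was 0.742 and 0.798 in SB, 0.529 and 0.502 at 3 days and 0.713 and 0.623 at 7 days. The 3-day pair was lowest, and the 7-day pair lay between it and SB without overlap. The ratio is given as a description, with no test.

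The IAP genes split. XIAP encodes the direct inhibitor of caspases 3, 7 and 9 and lies on chromosome X from 122993562 to 123047822. It was 2380 and 2683 in SB, 3821 and 3693 at 3 days and 4590 and 5124 at 7 days. No groups overlap. XIAP rose by 0.57 at 3 days (adjusted p = 0.000777, standard error 0.09), and its rise by day 7 was 0.94 (standard error 0.09, adjusted p = 7.31e-06), the largest rise among the members, to 1.92 times the SB mean. Both calls were kept in all 16 other settings. The step of 0.37 from 3 to 7 days (adjusted p = 0.0119) was not called when the second 3-day library (adjusted p = 0.0655) or the second 7-day library (0.29, adjusted p = 0.142) was left out, with no filter (adjusted p = 0.051) or without the trend (adjusted p = 0.0654).

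BIRC3 was 853 and 1392 in SB, 725 and 619 at 3 days and 661 and 651 at 7 days, with both SB libraries above the TGFβ libraries but far from each other. BIRC3 fell by 0.70 at 3 days (adjusted p = 0.0147, standard error 0.19) and its change by day 7 was -0.73 (standard error 0.19, adjusted p = 0.00566), with -0.03 between 7 and 3 days (95% interval -0.44 to 0.38, adjusted p = 0.917). Without the second SB library the 3-day value was -0.35 (adjusted p = 0.0927) and the 7-day value -0.38 (adjusted p = 0.0408). The 3-day call was also lost without the second 3-day library (adjusted p = 0.0674), and both calls were lost with no minimum on the mean (adjusted p = 0.115 and 0.0631) and without the trend (adjusted p = 0.0973 and 0.0505). BIRC3 lies on chromosome 11 from 102188215 to 102210134, next to BIRC2, which encodes its close relative cIAP1. BIRC2 went the other way, from 2734 and 2515 in SB to 4220 and 3825 at 3 days and 3900 and 4246 at 7 days (0.62, adjusted p = 0.000397, and 0.63, adjusted p = 0.000138).

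The 250 bases ahead of 1 annotated start each are shown for BIRC3 and CFLAR, which fell, and for XIAP, which rose. For CFLAR this is the 1 of its 4 windows with a match, and for XIAP it is 1 of 3, all without. CASP8, also called lower at 7 days, had no match in its 3 windows. Whether the motif goes with the direction of change was not tested. Sequences are from RefSeq on GRCh38.p14, all on the plus strand, at chr11:102317234-102317483 for BIRC3, chr2:201118466-201118715 for CFLAR and chrX:123859458-123859707 for XIAP. Capitals mark matches to the NF-κB consensus motif.
BIRC3: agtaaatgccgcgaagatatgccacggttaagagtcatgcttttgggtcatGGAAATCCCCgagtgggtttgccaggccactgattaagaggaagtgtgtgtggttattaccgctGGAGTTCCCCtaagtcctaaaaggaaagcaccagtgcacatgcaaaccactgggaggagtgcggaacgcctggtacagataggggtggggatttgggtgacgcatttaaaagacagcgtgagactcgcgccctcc
CFLAR: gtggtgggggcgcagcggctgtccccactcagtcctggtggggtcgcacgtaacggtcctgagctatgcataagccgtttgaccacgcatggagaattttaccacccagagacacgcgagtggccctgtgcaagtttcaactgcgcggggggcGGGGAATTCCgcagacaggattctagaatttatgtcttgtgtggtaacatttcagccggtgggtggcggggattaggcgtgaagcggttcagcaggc
XIAP: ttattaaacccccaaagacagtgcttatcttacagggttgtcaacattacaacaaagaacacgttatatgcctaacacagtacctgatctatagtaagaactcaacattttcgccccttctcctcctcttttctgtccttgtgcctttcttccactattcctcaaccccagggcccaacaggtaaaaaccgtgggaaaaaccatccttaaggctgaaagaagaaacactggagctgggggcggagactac
The BIRC3 window held 2 matches on the minus strand, beginning 199 and 135 bases before the start, and the CFLAR window held 1 on the plus strand, 97 bases before it. Windows were at hand for 8 of the 10 members, 17 in all because several genes have more than 1 start. The NF-κB motif was found ahead of BIRC3, of 1 of 4 starts of CFLAR and of 1 of 3 starts of FAS, where it lies within the gene past the other starts. It was not found ahead of XIAP, TNFRSF1A, CASP8, FADD or SERPINB9. Of all 35116 windows of that length, 5.21% held it. The AP-1 motif TGANTCA, searched on both strands, was ahead of 1 start each of CFLAR, CASP8 and FAS (6.57% of all windows), and the SMAD motif CAGACA ahead of 1 start each of CFLAR and CASP8 (13.6%). A match is a run of letters, and binding was not measured.

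SERPINB9 was at 0 in all 6 libraries and was not tested. It lies on chromosome 6 from 2887504 to 2903543, between 2 clade B serpin genes that were expressed. SERPINB1, which encodes an inhibitor of neutrophil proteases, was 2397 and 2991 in SB, 1923 and 1906 at 3 days and 2594 and 2594 at 7 days. It is named for its position, with its values seen. It fell by 0.48 at 3 days (adjusted p = 0.00551) and was then 0.44 higher at 7 days than at 3 days (adjusted p = 0.00956, or 0.0596 and 0.064 without either 7-day library), with -0.05 relative to SB. SERPINB6, which inhibits cathepsin G, rose from 2085 and 2159 to 2712 and 2539 at 3 days (0.31, adjusted p = 0.0199) and to 3534 and 3499 at 7 days (0.73, adjusted p = 2.67e-05). Its 3-day call was lost without the first SB library (adjusted p = 0.0547) or without the first 3-day library (adjusted p = 0.167).

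The other genes of these routes were taken from 7 lists of 94 symbols that leave out the members, of which 79 were tested. At 3 days 35 of them were called, with 14 higher and 21 lower, and at 7 days 48, with 24 higher and 24 lower. These are 44.3% and 60.8% of those tested, set against the 29% and 54.5% of all genes. Between 7 and 3 days 26 were called, or 32.9%, which is near the 33.2% of all genes. The 3-day count was 23 without the second 3-day library, and the count between 7 and 3 days dropped to 13 when the first 7-day library was left out, or to 16 for the first 3-day library.

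**Figure D3:**
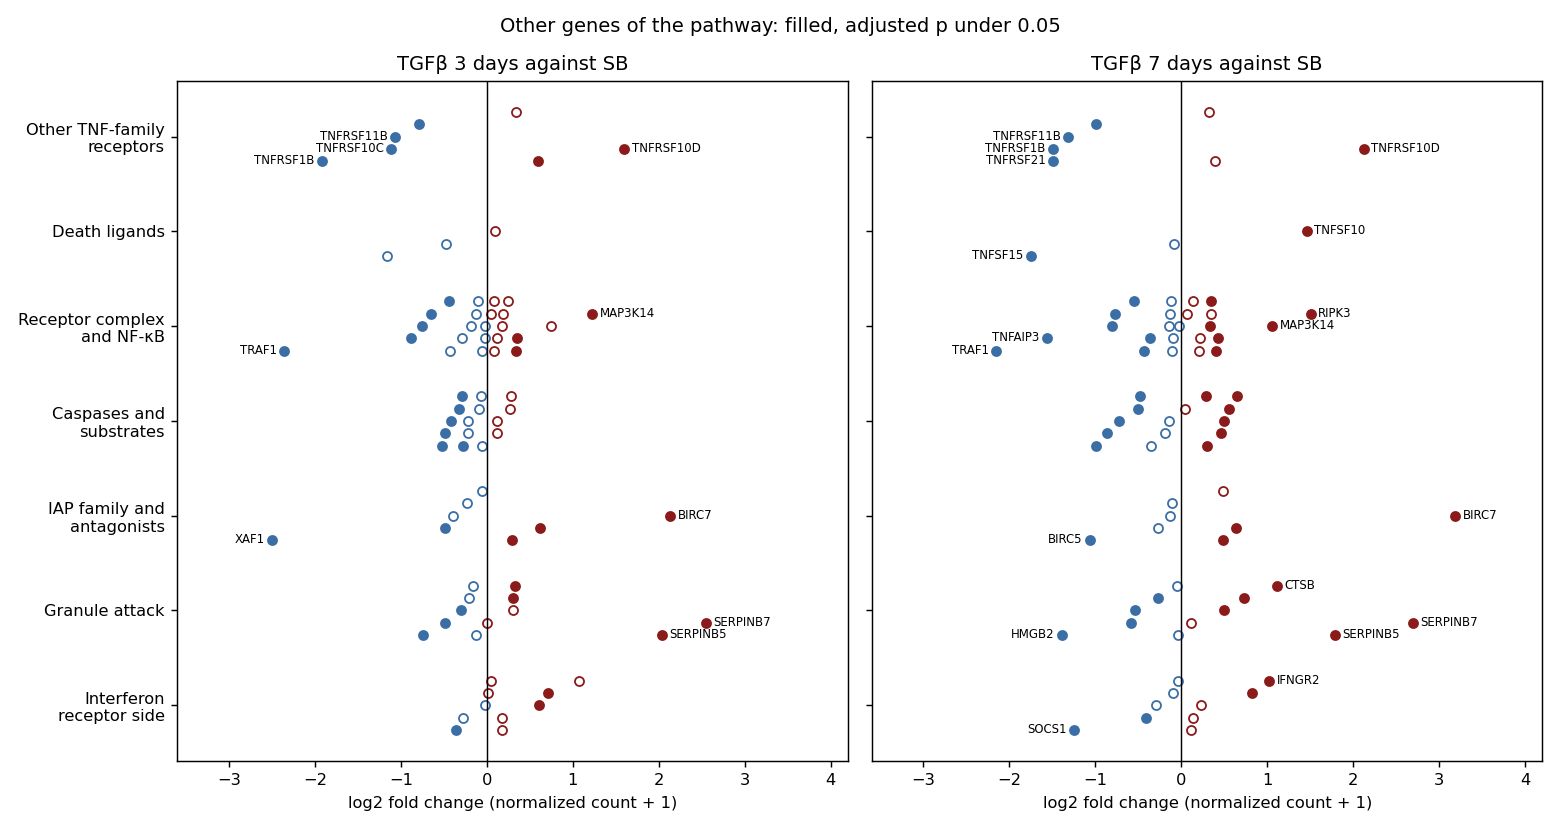
Log2 fold changes (horizontal axes, normalized count + 1) of the tested genes of 7 lists relative to SB, at 3 days (left) and 7 days (right). Filled points have an adjusted p under 0.05, red is higher and blue is lower, and names are given beyond a log2 fold change of 1. TNFRSF10D, BIRC7, SERPINB5 and SERPINB7 lie furthest to the right in both panels, and TRAF1 far to the left.

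Of the 6 ligand genes, 3 were under the filter. FASLG was between 0 and 2, TNF between 0 and 5 and LTA between 0 and 4. TNFSF10, which encodes TRAIL, was 91 and 153 in SB, 131 and 122 at 3 days and 325 and 327 at 7 days. It changed by 0.10 at 3 days (95% interval -0.39 to 0.58, adjusted p = 0.778) and rose by 1.46 at 7 days (standard error 0.22, adjusted p = 0.000176), with a step of 1.36 from 3 to 7 days (adjusted p = 0.00104). TNFSF12, the TWEAK gene, was between 29 and 50 and was not called. TNFSF15 was 10 and 36 in SB and 8 and 3 at 7 days, with a change of -1.75 (adjusted p = 0.027, or 0.188 without the second 7-day library).

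Among the other receptors, 6 of 7 tested genes were called at 3 days (2 higher, 4 lower) and 5 at 7 days (1 higher, 4 lower), or 85.7% and 71.4%, where 29% and 54.5% of all genes were. TNFRSF10D encodes DcR2, a TRAIL receptor with a truncated death domain that binds the ligand without killing. It was 939 and 825 in SB, 2776 and 2568 at 3 days and 3852 and 3841 at 7 days. The 3-day rise of 1.60 (standard error 0.10, adjusted p = 2.63e-07) grew to 2.13 by day 7 (adjusted p = 1.04e-08), or 4.36 times the SB mean. TNFRSF10C, the other membrane decoy, fell from 60 and 80 to 34 and 29 (-1.12, adjusted p = 0.00983) and to 30 and 39 (-0.997, adjusted p = 0.00902), and both calls were lost without the second SB library (adjusted p = 0.0559 and 0.0516), as was the first without the second 3-day library (0.0573) and the other without the first 7-day library (0.0794). TNFRSF11B, osteoprotegerin, a soluble decoy for TRAIL and RANKL, fell by 1.07 and 1.32 at 3 and 7 days (adjusted p = 0.000148 and 1.27e-05). TNFRSF21, the death receptor DR6, was 3694 and 3230 in SB, 1927 and 2062 at 3 days and 1216 and 1232 at 7 days, a change of -1.496 (adjusted p = 1.82e-07). TNFRSF1B, the TNF receptor without a death domain, went from 55 and 117 to 20 and 21 and then to 31 and 25 (-1.92, adjusted p = 0.00146, and -1.49, adjusted p = 0.00334). TNFRSF12A, the TWEAK receptor, was 4049 and 2907 in SB and 4748 and 5677 at 3 days (0.60, adjusted p = 0.0106, or 0.36 with adjusted p = 0.0915 without the second SB library and 0.0621 without the second 3-day library), with 0.32 at 7 days (adjusted p = 0.0889).

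The summed normalized count of the membrane decoys TNFRSF10C and TNFRSF10D was divided by that of TNFRSF10A and TNFRSF10B. This ratio was 0.259 and 0.201 in SB, 0.546 and 0.532 at 3 days and 0.563 and 0.606 at 7 days. Both TGFβ pairs lay above SB. The sum of the decoys went from 999 and 905 to 3882 and 3880 at 7 days, and that of the death receptors from 3855 and 4508 to 6901 and 6404. Nearly all of the decoy sum was TNFRSF10D. The soluble decoy TNFRSF11B is not in the sum and went from 499 and 457 in SB to 196 and 186 at 7 days.

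**Figure D4:**
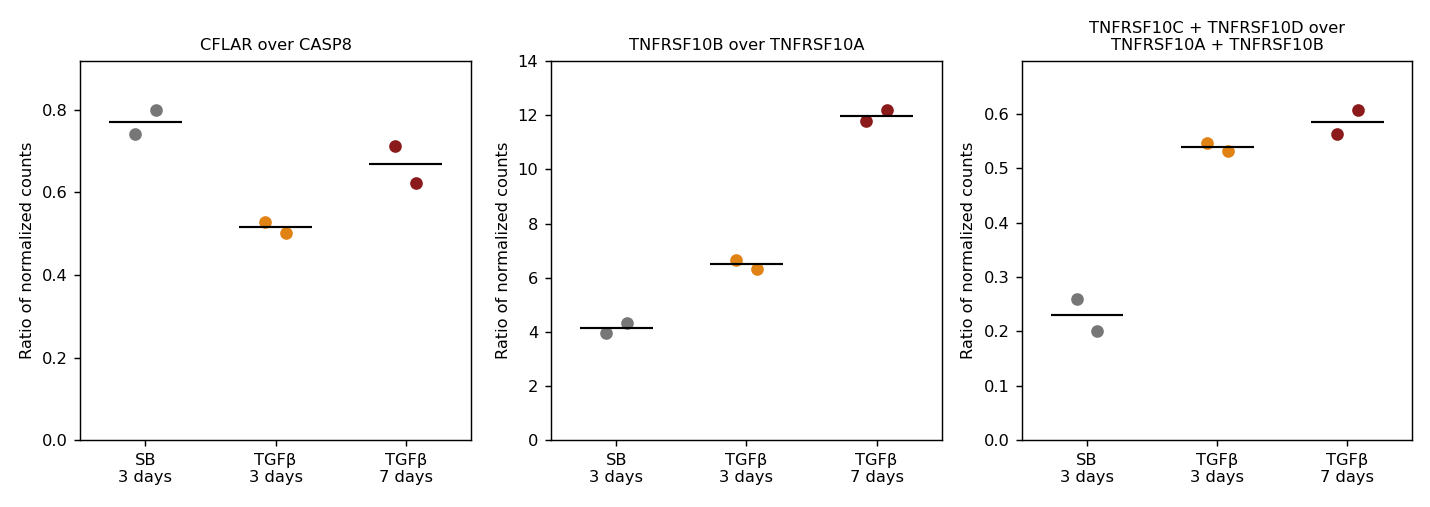
Ratios of normalized counts within a library (vertical axes, linear from 0) for CFLAR over CASP8, TNFRSF10B over TNFRSF10A and the membrane decoys TNFRSF10C and TNFRSF10D over TNFRSF10A and TNFRSF10B. Points are libraries and lines the mean of 2. The first is lowest at 3 days, from 0.502 to 0.529, the second is highest at 7 days, from 11.8 to 12.2, and the last is lowest in SB, from 0.201 to 0.259.

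In the receptor complex and its NF-κB branch, 8 of 24 tested genes were called at 3 days (3 higher, 5 lower) and 13 at 7 days (6 higher, 7 lower), or 33.3% and 54.2%, near the 29% and 54.5% of all genes. TRAF1, an NF-κB target that partners with cIAP proteins, fell most, from 1440 and 2116 in SB to 318 and 361 at 3 days and 418 and 368 at 7 days (-2.36, adjusted p = 9.27e-07, and -2.15, adjusted p = 8.81e-07). TNFAIP3, the A20 deubiquitinase gene, was 2798 and 3001, then 1730 and 1695, then 968 and 988 (-0.76, adjusted p = 7.55e-05, and -1.57, adjusted p = 7.47e-08). IKBKB, the kinase that releases NF-κB, fell by 0.88 and 0.81 (adjusted p = 8.97e-05 and 7.4e-05). TRAF2 had changes of -0.65 (adjusted p = 0.0239) and -0.77 (adjusted p = 0.00509, or -0.52 with 0.0693 without the second 7-day library). Its 3-day value was -0.39 without the first 3-day library (adjusted p = 0.212), and that call was also lost without either SB library (adjusted p = 0.0586 and 0.122). The kinase of the non-canonical branch, MAP3K14 or NIK, rose from 283 and 249 to 567 and 683 at 3 days (1.23, adjusted p = 0.00011) and stood at 630 and 488 at 7 days (1.06, adjusted p = 0.000147). RIPK3, the kinase of necroptosis, rose at 7 days from 13 and 22 to 47 and 53 (1.504, adjusted p = 0.00256).

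Of the 15 genes for caspases and their substrates, 6 were called at 3 days, all lower, and 11 at 7 days, with 6 higher and 5 lower, which is 40% and 73.3% against 29% and 54.5% of all genes. The DNA repair enzyme and caspase substrate PARP1 was 21209 and 21963 in SB, 14972 and 15108 at 3 days and 10998 and 10778 at 7 days (-0.99 at 7 days, adjusted p = 6.58e-07). DFFA, the inhibitor of the caspase-activated DNase, was 0.548 times SB at 7 days (-0.87, adjusted p = 1.51e-05), while its 3-day call (-0.29, adjusted p = 0.0376) was lost without any 1 library (adjusted p from 0.0598 to 0.259). FAF1, which binds FAS, fell by 0.33 (adjusted p = 0.0162, or 0.121 without the second 3-day library and 0.0525 without the first SB library) and 0.72 (adjusted p = 3.6e-05). CASP2 fell by 0.42 and 0.51 on the log2 scale (adjusted p = 0.0131 and 0.00201), and the 3-day value was -0.27 without the first SB library (adjusted p = 0.0763), with adjusted p = 0.0641 without the second 3-day library. BID, which caspase-8 and granzyme B cleave to engage mitochondria, was 505 and 571 in SB, 498 and 513 at 3 days and 797 and 777 at 7 days (0.55 at 7 days, adjusted p = 0.00195). CASP10, the neighbour and relative of CASP8, went from 107 and 145 to 188 and 205 at 7 days (0.65, adjusted p = 0.0118, or 0.43 with adjusted p = 0.0731 without the first SB library and 0.0879 without the second 7-day library).

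In the IAP family and its antagonists, 5 of 8 tested genes were called at 3 days (3 higher, 2 lower) and 4 at 7 days (3 higher, 1 lower), or 62.5% and 50%, against 29% and 54.5% of all genes. BIRC5, survivin, which also acts in mitosis, fell from 4044 and 3530 to 2655 and 2726 and then 1838 and 1779 (-0.49, adjusted p = 0.00212, and -1.06, adjusted p = 2.45e-06). BIRC7, livin, rose from 3 and 7 to 27 and 21 and then 58 and 44 (2.13, adjusted p = 0.00187, and 3.19, adjusted p = 4.24e-05). BIRC6 rose by 0.49 at 7 days (adjusted p = 0.0011), while its 3-day rise of 0.29 (adjusted p = 0.0399) was lost without the first SB library (0.15, adjusted p = 0.202) and without any 1 of the 3-day or 7-day libraries (adjusted p from 0.0681 to 0.132). The XIAP antagonist XAF1, an interferon target, was 13 and 136 in SB, 14 and 3 at 3 days and 34 and 46 at 7 days. The SB pair overlaps both others. Its change of -2.50 at 3 days (adjusted p = 0.0453) was -0.85 without the second SB library (adjusted p = 0.39) and -1.55 without the second 3-day library (adjusted p = 0.21), and was not called without the second 7-day library (adjusted p = 0.0523). That of 2.39 between 7 and 3 days (adjusted p = 0.049) was 1.43 without the second 3-day library (adjusted p = 0.236) and was not called without either 7-day library (adjusted p = 0.101 and 0.178).

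On the granule side, 7 of 12 tested genes were called at 3 days (4 higher, 3 lower) and 9 at 7 days (5 higher, 4 lower). These are 58.3% and 75%, against 29% and 54.5% of all genes. The 3-day calls include the serpins SERPINB1, SERPINB5, SERPINB6 and SERPINB7, while SET, APEX1 and NME1 were not called at 3 days. The shares describe this mixed list and not granzyme inhibitors alone. SERPINB5, maspin, rose from 1146 and 693 to 3811 and 3512 at 3 days and 3050 and 3101 at 7 days (2.04, adjusted p = 4.31e-06, and 1.79, adjusted p = 5.81e-06), and is not known as a granzyme inhibitor. SERPINB7 rose from 2 and 3 to 23 and 16 and then 17 and 27 (2.54, adjusted p = 0.00097, and 2.70, adjusted p = 0.000276). CTSB encodes cathepsin B, a lysosomal protease that can degrade perforin. It was 29807 and 33418 in SB, 31073 and 32360 at 3 days and 69553 and 67136 at 7 days. The CTSB change was 0.01 at 3 days (95% interval -0.17 to 0.19) and 1.11 at 7 days (standard error 0.08, adjusted p = 5.55e-07), or 2.16 times the SB mean, and the change from 3 to 7 days was also 1.11 (adjusted p = 7.82e-06). HMGB2, a granzyme A substrate, fell from 8660 and 7853 to 3146 and 3145 at 7 days (-1.39, adjusted p = 1.4e-07). NME1, the DNase that granzyme A releases, had a 7-day change of -0.58 (adjusted p = 0.00334).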

How the data were processed

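Total RNA of H2087-LCC cells was made into poly(A) libraries with an unstranded TruSeq kit. The authors mapped read pairs to hg19 with STAR, assigned uniquely mapped reads with HTSeq 0.6.1p1 and scaled counts to library size. The values they deposited, recorded under the unit score, are these normalized counts rounded to whole numbers. What 1 read was worth was estimated from gaps among low values at 0.896 to 1.10 normalized counts, which gives the depths stated, for counting error only. DESeq2, used by the authors, needs counts before scaling and was not run. Log2(value + 1) of genes with a mean of at least 10 was fitted with limma 3.58.1 (R 4.3.3) by group, with a trend and 3 residual degrees of freedom, and Benjamini-Hochberg adjustment over all 14395 genes at 0.05. Alternatives were the pseudocount, the filter, the scaling, limma's trend, the libraries fitted, a replicate block and leaving out each library. The steps were tested on simulated data. The members and lists were chosen with earlier results of these data known. Named genes are the members, all death ligands and, per list, up to 6 called genes with the largest change, plus SERPINB1 and genes used as checks, and some listed genes are not reported here. Gene positions are from GENCODE release 44 on GRCh37, and promoter windows from RefSeq. The annotation release used for counting is not given in the sources used here.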

Additional observations from a re-analysis of the deposited data

Results flagged for a closer look

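For the genes below, the change from SB after 7 days of TGFβ differed from that after 3 days, tested by the difference between the 7-day and 3-day libraries themselves (limma, adjusted p under 0.05). Among the members this log2 difference was -0.5 for FAS (-0.68 at 3 days, -1.19 at 7 days), -0.38 for TNFRSF10A, 0.5 for TNFRSF10B, 0.42 for TNFRSF1A and 0.37 for XIAP, each with the sign it had at 3 days. Among the other genes of the routes it was 0.53 for TNFRSF10D, -0.7 for TNFRSF21, -0.81 for TNFAIP3, -0.47 for PARP1, -0.57 for DFFA, -0.39 for FAF1, -0.57 for BIRC5, -0.65 for HMGB2, 0.42 for SERPINB6 and 0.31 for IFNGR2, each called and in the same direction at 3 and at 7 days. Genes that were called at 7 days but not at 3 days were TNFSF10 (1.36), CTSB (1.11), BID (0.64), CASP10 (0.54), NME1 (-0.42) and PTPN2 (-0.42). SERPINB1 was called at 3 days but not at 7 days, with a difference of 0.44. Among the genes used as checks of the TGFβ response and of the epithelial cells it was 0.99 for SKIL, 0.61 for FN1, 0.63 for CDKN2B, -1.36 for CDH1, -1.01 for EPCAM, -0.27 for KRT18, -0.45 for KRT7 and 0.74 for SOX2. SOCS1 had a 3-day change of 1.07 (adjusted p = 0.111) and a 7-day change of -1.25 (adjusted p = 0.0392), a difference of -2.32, with values of 3 to 20 normalized counts in the 6 libraries. XAF1 had a difference of 2.39 that was not called without the second 3-day library (1.43, adjusted p = 0.236) or without either 7-day library (adjusted p = 0.101 and 0.178). Leaving out 1 of the 3-day or 7-day libraries ended the call of this difference for FAS, TNFRSF10A, TNFRSF1A, XIAP, FAF1, CASP10, NME1, IFNGR2 and PTPN2 (adjusted p from 0.0501 to 0.263) and also for SERPINB1, KRT18, KRT7 and SOX2, and the 3-day call of DFFA was lost without any 1 library.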

How the results depend on the processing

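The 27 fold changes of the members were recomputed in 16 other ways, 432 values in all, of which 385 kept their direction and their side of the threshold, 41 lost a call, 3 gained one and 3 changed sign. Those 3 were not called: FADD between 7 and 3 days ranged from -0.02814 (first 3-day library left out) to 0.1124, with -0.01604 when the first 7-day library was left out, and BIRC3 ranged from -0.1441 to 0.08358 (first 3-day library left out). Without the trend in limma, 3 members were called at 3 days and 3 between 7 and 3 days, with 19 and 17 of the other pathway genes. An absolute log2 fold change over 1 left 0 members at 3 days, 1 at 7 days and 0 between 7 and 3 days, and 10, 18 and 4 of the other genes. Members called with 1 library left out ranged from 2 to 6 between 7 and 3 days, and the other genes from 23 to 35 at 3 days and from 13 to 32 between 7 and 3 days. The causes were not tested. With equal library totals 41.6% of the genes called at 3 days were higher, against 51.5% as deposited, and no member changed direction. Libraries that share a replicate number did not pair: their deviations correlated by 0.14 (SB and 3 days), -0.1 (SB and 7 days) and -0.292 (3 and 7 days) across 14395 genes. With the replicate block 5, 9 and 5 members and 32, 48 and 24 other genes were called, and TNFRSF1A at 3 days (0.2843, adjusted p = 0.0536) was the member that lost its call. With the 7-day numbers crossed, chosen after seeing the data, 8, 9 and 6 were called. Depth limits the lowest genes: SERPINB9, at 0, had no read assigned in any library, and a transcript too rare to be sampled would also read 0.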

Other observations

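Killing by lymphocytes also acts through interferon-γ, whose receptor and kinases were on a list of 10 genes, all tested. Of these, 4 were called at 7 days (2 higher, 2 lower), or 40%, where 54.5% of all genes were. IFNGR2, a chain of the interferon-γ receptor, was 1206 and 1170 in SB, 2088 and 1810 at 3 days and 2427 and 2410 at 7 days (0.71 with adjusted p = 0.000212, then 1.03 with adjusted p = 5.13e-06). JAK1, the kinase bound to that receptor's other chain, rose by 0.61 and 0.82 on the log2 scale (adjusted p = 0.000239 and 1.02e-05). PTPN2, a phosphatase that damps JAK signaling, was 1897 and 1752 in SB, 1920 and 1755 at 3 days and 1306 and 1446 at 7 days (-0.41 at 7 days, adjusted p = 0.00497, or 0.0655 without the first 7-day library). SOCS1, an inhibitor of JAK kinases, was 12 and 6 in SB, 18 and 20 at 3 days and 3 and 3 at 7 days, and its 7-day call (-1.25, adjusted p = 0.0392) was lost without the first SB library (-0.81, adjusted p = 0.186) and without either 7-day library (adjusted p = 0.1 and 0.103).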
